A study of Homo sapiens with 9 samples.

Results

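The 3 control libraries of a series of 9 RNA-seq libraries are described here. All were made from A549, a long-established cell line grown out of a human lung adenocarcinoma. They were chosen by their titles, plko #1 to #3. No other library enters the levels given below, except through the scaling in a check over all 9 libraries near the end. Their treatment label reads scrambled controls, whereas pLKO is the name of a vector for short hairpin RNA, so the labels do not settle if a scrambled hairpin or an empty vector was present in these cells. The cells therefore stand for A549 that had gone through the handling of a knockdown experiment, not for untouched A549. Per the labels' protocols the culture medium held 5% serum, the miRNeasy Mini Kit served for RNA isolation, and the TruSeq stranded mRNA kit, which selects polyadenylated RNA and keeps its strand, for library making. The series' design calls the libraries biological replicates, but does not state that each came from its own transduction, so the spread below may be narrower than that between independent cultures.

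A549 is widely used as a model of the alveolar epithelium and of lung cancer. The line is known to carry a loss of the kinase STK11, a defective KEAP1 and a deletion that takes in CDKN2A. KEAP1 is the adaptor that hands the transcription factor NRF2 (gene NFE2L2) to a ubiquitin ligase for degradation. When KEAP1 fails, NRF2 builds up, pairs with small MAF proteins and binds antioxidant response elements near genes for glutathione synthesis, aldehyde and quinone reduction, NADPH supply and drug export. In the lung, alveolar type 2 cells make surfactant, flat alveolar type 1 cells form the surface for gas exchange, and club, goblet, ciliated and basal cells line the airways.

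The deposited counts per gene summed to 37073786, 38843912 and 40248882 in control replicates 1, 2 and 3. Levels are given in CPM, a gene's count per 1e+06 counts of the TMM-scaled library size. Where genes are compared with each other, levels are given on a per-length scale (TPM): counts per kilobase of annotated exon, scaled so that a library sums to 1e+06. A gene was called detected at 1 CPM or more in each of the 3 libraries, and near zero under 0.1 CPM in each. A count of 0 allows a level of up to 0.0802, 0.0778 and 0.0747 CPM in replicates 1, 2 and 3 (3 counts of the total, counting error only). With 1 group and no contrast there is no test between groups. Differences between genes are described against the SD over the 3 libraries (n = 3 throughout), which was small: the common biological coefficient of variation, edgeR's estimate of the spread between libraries, was 2.99% over 13116 genes.

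Detected gene IDs numbered 13116 of 57905 (22.7%), against 38467 (66.4%) near zero, and detected protein-coding genes 11768 of 19263 (61.1%). A further 5139 protein-coding genes (26.7%) were near zero. Few genes carried much of the RNA: 758, 730 and 746 genes made up 50% of the counts in replicates 1, 2 and 3, and the top 10 genes held 8.01%, 8.73% and 8.41%. At the upper end 1343 protein-coding genes (6.97%), and 1374 of the 52338 IDs with a length (2.63%), had a mean of 100 TPM or more. Of the protein-coding genes 86 had 1000 TPM or more, whereas the median detected one stood at 19.9 TPM. Mitochondrially encoded genes took 6.46%, 7.55% and 7.10% of counts, with replicate 1 lowest. Ribosomal protein genes took 5.35 ± 0.103%, pseudogenes 0.326 ± 0.00745% and other non-coding genes 0.740 ± 0.00332%.

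Ferritin light chain led the ranking of nuclear protein-coding transcripts outside the ribosomal protein genes, and detoxifying reductases stood among the cytoskeletal and glycolytic genes. FTL (ENSG00000087086), the light subunit of the iron-storage shell, was at 27881, 25297 and 26179 TPM in replicates 1, 2 and 3. The heavy subunit FTH1, which oxidises the iron, followed in sixth place at 6529 ± 72.6 TPM. Both have many processed pseudogenes, so their counts depend on how reads with several matches were treated, which is not given in the sources used here. AKR1B10 (ENSG00000198074), a reductase of retinal and other aldehydes, was second at 9390, 9220 and 9254 TPM. ALDH1A1 (ENSG00000165092), which oxidises retinal to retinoic acid, came next at 9381, 9169 and 9230 TPM. The ranges of these 2 enzymes overlapped, so their order is not settled, and in CPM ALDH1A1 was the higher (7853 ± 73.1 against 4822 ± 56.0).

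**Figure D1:**
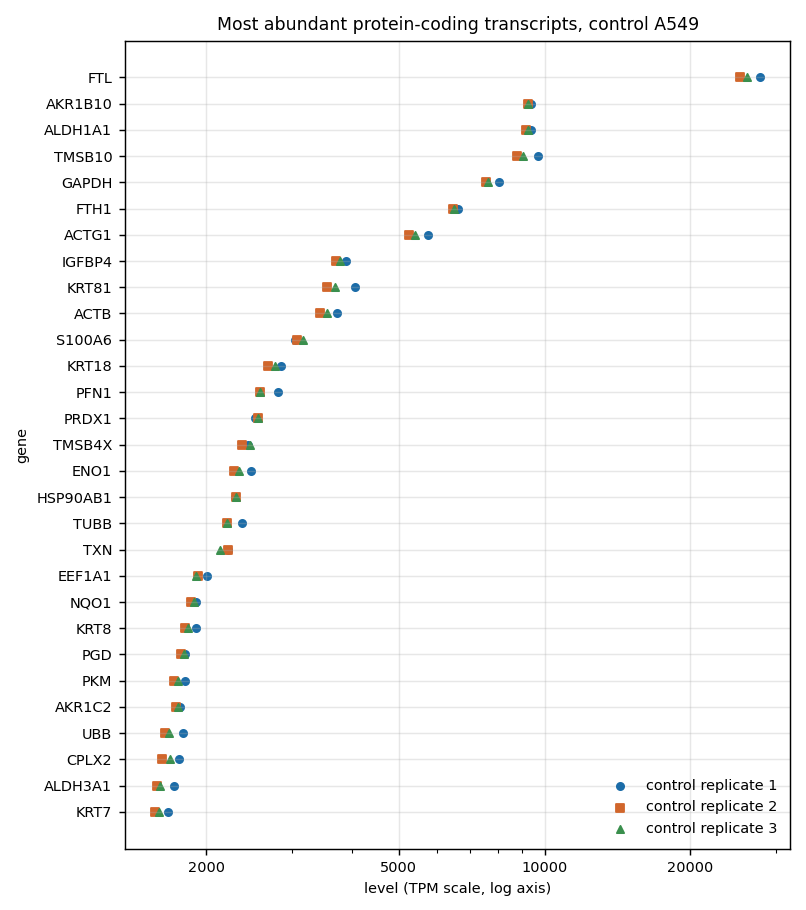
Levels of 29 of the 30 most abundant protein-coding genes outside mitochondrial and ribosomal protein genes, on the TPM scale (log axis); each point is 1 control library. FTL stands apart at 25297 to 27881 TPM, and AKR1B10, ALDH1A1 and TMSB10 follow close together with means of 9170 to 9288.

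The rest of the 30 fell into a few groups. Actin and its partners were TMSB10, which binds actin monomers (9170 ± 476 TPM), ACTG1 (5465 ± 256), ACTB (3569 ± 150), PFN1 (2659 ± 134) and TMSB4X (2425 ± 47.4). Keratins were KRT81 (3772 ± 263), KRT18 (2766 ± 85.8), KRT8 (1850 ± 49.0) and KRT7 (1612 ± 52.1). With the longest annotated transcript as the length KRT8 was at 3348 and KRT7 at 2832 TPM, and of the genes named next ENO1 was at 3685 and PKM at 3760. KRT8, KRT18 and KRT7 are the filament proteins of simple epithelia, whereas KRT81 is a hair keratin with near-identical neighbours. Glycolysis gave GAPDH (7758 ± 264), ENO1 (2363 ± 97.2) and PKM (1757 ± 45.2), and the oxidative pentose phosphate pathway gave PGD (1794 ± 16.4). PRDX1, a peroxidase that uses thioredoxin, stood at 2544 ± 23.2 TPM, TXN itself at 2190 ± 47.3, the quinone reductase NQO1 at 1885 ± 20.8, AKR1C2 at 1750 ± 17.8 and ALDH3A1 at 1637 ± 71.3. IGFBP4, a secreted binding protein of insulin-like growth factors, was at 3791 ± 85.5 TPM. S100A6, HSP90AB1, TUBB, EEF1A1 and UBB lay between 1701 and 3095 TPM. CPLX2, a complexin of the machinery that releases synaptic vesicles, also belonged to the 30, at 1686 ± 67.3 TPM and 3561 ± 68.6 CPM.

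Listed target genes of NRF2 were abundant as a group. The lists were drawn up with earlier results of these data known, so the shares below describe them and test nothing. In all, 64 of 67 listed targets were detected (95.5%, against 61.1% of protein-coding genes), 44 had 100 TPM or more and 14 had 1000 TPM or more. Their median was 191 TPM, against 5.01 TPM over all protein-coding genes and 19.9 over the detected ones. Together they took 5.49%, 5.4% and 5.4% of all counts. Of the regulators, KEAP1 (ENSG00000079999) was at 99.6, 90.9 and 91.1 CPM and NFE2L2 (ENSG00000116044) at 99.3, 108 and 101 CPM. The transcript level says nothing of whether the KEAP1 protein works. CUL3, the ligase scaffold, was at 126 ± 3.98 CPM, its RING partner RBX1 at 14.1 ± 1.04 TPM, the small MAF genes MAFG, MAFK and MAFF at 129 ± 3.47, 57.0 ± 2.87 and 5.25 ± 0.118 CPM, and the competing repressor BACH1 at 24.8 ± 0.493 CPM. SQSTM1, an autophagy receptor that binds KEAP1 and is itself a target, had the highest per-length level of the 10, 455 ± 15.5 TPM (877 with the longest transcript), and the related factor NFE2L1 the next, 202 ± 5.54 TPM.

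Promoter sequences of 4 target genes are shown because each holds the core of an antioxidant response element, the letters TGACNNNGC on either strand, close to the start of the gene. They are the 150 bases directly upstream of the annotated start, 5′ to 3′ on the gene's own strand, from RefSeq's table for build GRCh38.p14, with the match in capitals. GSTP1, a glutathione transferase, lies on the plus strand (chr11:67583662-67583811) and its match begins 66 bases before the start. GPX2, a glutathione peroxidase, lies on the minus strand (chr14:64942746-64942895) with the match at 122 bases, read on the opposite strand. ME1, the cytosolic malic enzyme, lies on the minus strand (chr6:83431052-83431201) with the match at 137 bases. GCLM, the modifier subunit of the enzyme that starts glutathione synthesis, lies on the minus strand (chr1:93909431-93909580) with the match at 34 bases, read on the opposite strand.
GSTP1: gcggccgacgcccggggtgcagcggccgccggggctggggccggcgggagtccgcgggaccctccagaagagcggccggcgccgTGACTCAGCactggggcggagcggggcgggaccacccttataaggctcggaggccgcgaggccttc
GPX2: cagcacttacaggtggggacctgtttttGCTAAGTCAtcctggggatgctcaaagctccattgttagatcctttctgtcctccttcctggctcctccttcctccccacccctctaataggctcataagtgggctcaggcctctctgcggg
ME1: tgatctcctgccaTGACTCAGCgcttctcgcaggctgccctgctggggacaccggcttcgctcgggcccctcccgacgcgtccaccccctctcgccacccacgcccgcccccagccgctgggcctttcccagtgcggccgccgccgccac
GCLM: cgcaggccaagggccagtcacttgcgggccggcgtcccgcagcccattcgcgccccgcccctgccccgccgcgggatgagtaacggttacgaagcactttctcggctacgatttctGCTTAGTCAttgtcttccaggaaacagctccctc

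These 4 genes were all detected, as were 95.5% of all listed targets and 61.1% of all protein-coding genes. GSTP1 was at 736, 693 and 698 CPM and GPX2 at 251, 233 and 228. ME1 was at 126, 135 and 134 CPM and GCLM at 189, 198 and 206. In the table's windows of 250 bases before to 50 after a start, the core was found for 18 of 50 NRF2 target symbols with an entry (36%), for 9 of 60 lung list symbols (15%) and for 4384 of 27305 symbols in all (16.1%). Here the lung lists hold the transcription factors of lung and endoderm beside the cell type markers. Per promoter entry the shares were 19 of 69 (27.5%), 9 of 86 (10.5%) and 4687 of 35116 (13.3%). A match is a stretch of letters and not a shown binding site, and a target without one may have its element outside the window.

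All 14 genes of the list of aldo-keto, aldehyde and quinone enzymes were detected, beside 61.1% of all protein-coding genes. Not all are reductases, since the list includes the aldehyde dehydrogenases ALDH1A1 and ALDH3A1, which oxidise. The median of the list was 814 TPM, and 7 members had 1000 TPM or more, ALDH1A1 and ALDH3A1 among them. Among the aldo-keto reductases, AKR1C2 was at 3328, 3398 and 3369 CPM, AKR1C3 at 2092, 2158 and 2061 and AKR1B1 at 1409, 1365 and 1366. Set per length, AKR1B10 made up 65.2 ± 0.249% of the AKR1 sum, AKR1C2 12.3 ± 0.0664%, AKR1C3 10.9 ± 0.167% and AKR1B1 8.89 ± 0.224%. With the longest annotated transcript as the length, the share of AKR1B10 was 50.7% and AKR1C3 (19.5%) passed AKR1C2 (15%). AKR1C1, a near-identical copy of AKR1C2, was at 499 ± 2.87 CPM, and AKR1B15, close to AKR1B10, at 121 ± 5.42. Reads can be lost or shared within both groups. AKR1A1 was at 64.2 ± 4.23 CPM and AKR1C4, known mainly from liver, at 1.45 ± 0.0952. NQO1, which reduces quinones to hydroquinones, was at 1806, 1841 and 1830 CPM, and ALDH3A1 at 1962, 1886 and 1879. PTGR1, a reductase of reactive aldehydes and prostaglandins, was at 405 ± 11.6 CPM, CBR1 at 144 ± 3.59 and CBR3 at 11.6 ± 0.642.

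Glutathione genes covered supply, synthesis, recycling and use. The cystine importer SLC7A11 was at 362, 355 and 366 CPM and its partner SLC3A2 at 757 ± 3.13. GCLC, the catalytic subunit of the first step, was at 298, 317 and 313 CPM. Per length it was at 120 ± 1.65 TPM and its modifier GCLM at 122 ± 4.14, but GCLC was at 205 with the longest annotated transcript. GSS, which adds glycine, was at 100 ± 1.15 CPM and GSR, which recycles the oxidised form, at 455 ± 10.1. Of the peroxidases GPX2 stood at 532 ± 37.5 TPM, GPX1 at 225 ± 12.1 and GPX4 at 189 ± 15.8. GPX2, otherwise known from the gut, was thus the highest of the 3 listed. Of the listed transferases GSTP1 was at 1247 ± 66.1 TPM and MGST1 at 167 ± 5.36 (435 with the longest annotated transcript as the length), whereas GSTM3 was at 3.39 ± 0.169 TPM and GSTA4 at 13.6 ± 1.19 CPM. GSTA1 was not detected, with 4, 0 and 4 counts.

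The thioredoxin arm was led by PRDX1 and TXN, both named above, and by the reductase TXNRD1 at 1603, 1698 and 1629 CPM. SRXN1, which repairs over-oxidised peroxiredoxins, was at 8.63, 12.6 and 10.8 CPM, and per length at 13.3 ± 2.19 TPM against 823 ± 10.1 for TXNRD1. It was among the 10 most variable genes with a mean of 10 CPM or more. SESN2 stood at 10.2 ± 0.667 CPM. NADPH, which feeds glutathione, thioredoxin and the reductases alike, comes in part from PGD (1562, 1599 and 1591 CPM), ME1 and IDH1 (254 ± 1.98). In the non-oxidative branch of the pentose pathway, TKT was at 2095, 2012 and 2028 CPM and TALDO1 at 373 ± 7.60. The remaining members PGLS, RPIA, RPE and H6PD lay between 26.3 and 88.8 CPM, and the transketolase relative TKTL1 had 0 counts in all 3 libraries.

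**Figure D2:**
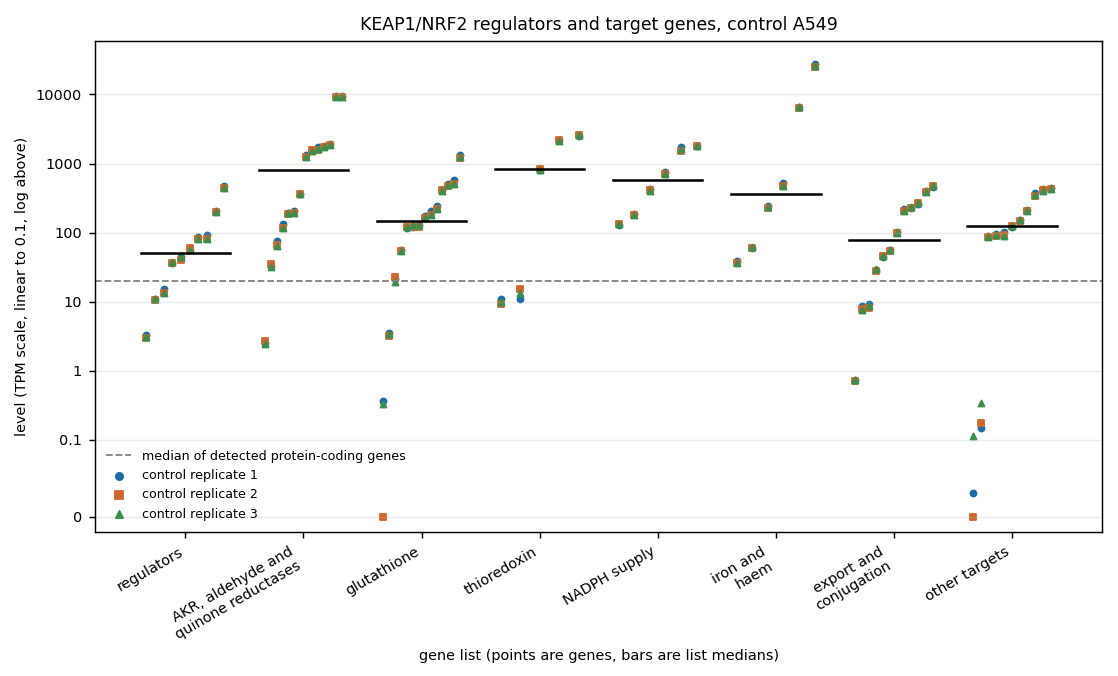
Levels of NRF2 regulators and listed NRF2 targets by class on the TPM scale (linear to 0.1, log above); each point is 1 gene in 1 control library, bars are class medians and the dashed line is the median detected protein-coding gene. The medians of all 7 target classes, 77.6 to 823 TPM, lie above the dashed line at 19.9.

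Iron and haem genes other than ferritin were all detected. HMOX1, which opens the haem ring, was at 168, 164 and 166 CPM, BLVRB, which reduces biliverdin, at 246 ± 10.6, FECH, the last enzyme of haem synthesis, at 80.9 ± 2.16 CPM and the haem carrier SLC48A1 at 37.4 ± 1.35 TPM. Export pumps of conjugated drugs stood at similar levels to each other per length: ABCC2 at 269 ± 5.58 TPM, ABCC1 at 230 ± 5.61 and ABCC3 at 211 ± 6.93. These were also the 3 highest of the 45 ABC transporter genes measured, of which 29 were detected (64.4%, beside 61.1% of all protein-coding genes). ABCC4 was at 55.3 ± 0.690 TPM, ABCG2 at 45.5 ± 0.965 and ABCC5 at 8.69 ± 0.625. UGDH, which makes the sugar acid used for glucuronidation, was at 466 ± 6.43 TPM and the epoxide hydrolase EPHX1 at 389 ± 4.53, while UGT1A6, a glucuronidating enzyme, was at only 0.731 ± 0.0192. The UGT1A genes share most of their exons, so their counts are uncertain. CYP4F11 and CYP4F3, near-identical fatty acid hydroxylases, were at 100 ± 1.73 and 28.7 ± 0.790 TPM, and CES1 was at 8.09 ± 0.508.

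Further targets were SPP1, the secreted osteopontin (431 ± 7.90 TPM), TSKU (354 ± 22.5), TRIM16L (208 ± 6.11), the taurine transporter SLC6A6 (151 ± 1.75), PIR (124 ± 2.30), the orphan receptor NR0B1 (94.7 ± 6.34), OSGIN1 (92.1 ± 3.57) and TRIM16 (87.4 ± 2.41). The exceptions were FGF19, with 4, 5 and 10 counts, and WNT3A, with 1, 0 and 4.

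Many markers of lung cell types were absent from these libraries. Their lists too were drawn up with earlier results of these data known. Of 70 matched markers of 6 lung cell types, 28 were detected (40%, against 61.1% of protein-coding genes), 29 were near zero (against 26.7%) and 17 had no count in any library. All 70 together took 0.159%, 0.156% and 0.158% of counts. The surfactant genes of alveolar type 2 cells were at or close to 0: SFTPA1 had 1, 0 and 0 counts, SFTPA2 and SFTPB had 0 in all libraries, SFTPC (ENSG00000168484) had 13, 7 and 9 and SFTPD had 2, 1 and 5. The phosphate transporter SLC34A2 had 1, 3 and 0 counts, LAMP3 had 11, 8 and 15, PGC had 0 throughout and PLA2G1B had 0, 0 and 2. NKX2-1 (ENSG00000136352), the transcription factor that directs lung development and surfactant genes, had 1, 4 and 3 counts. The type 2 markers detected included LPCAT1, which remodels surfactant lipid, at 195, 192 and 198 CPM, the lamellar body pump ABCA3 at 53.4, 54.3 and 53.6, and MFSD2A at 5.74 ± 0.445. ETV5 was at 49.1 ± 1.35 CPM and the protease CTSH at 12.7 ± 0.401, while NAPSA, the protease napsin A, was at 1.47, 1.43 and 0.921. The labelled origin, lung adenocarcinoma, thus met few of the defining markers of the alveolar type 2 cell in the data, 5 of 15 detected.

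**Figure D3:**
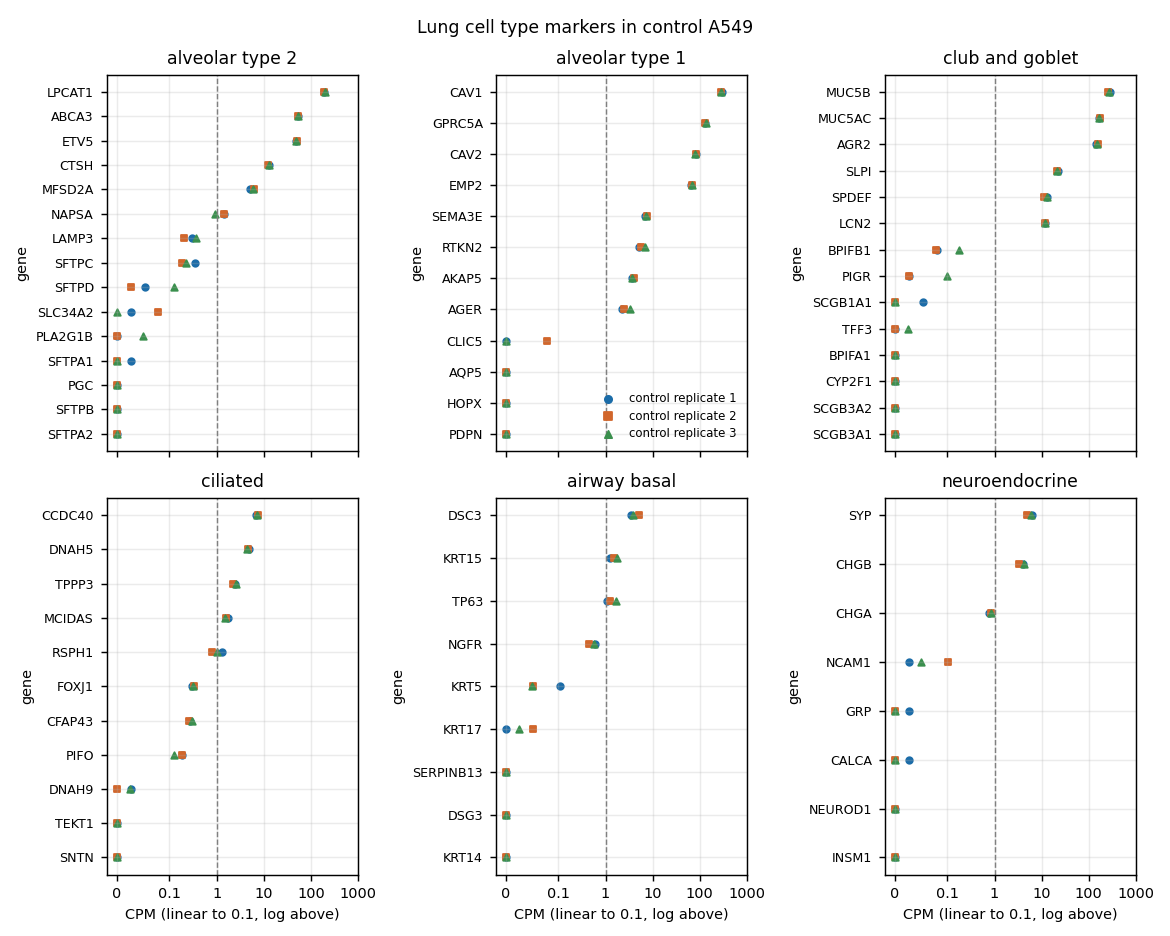
Levels of 69 of the 70 markers of 6 lung cell types in CPM (linear to 0.1, log above; dashed line at 1 CPM); each point is 1 control library. Every panel spreads from genes at 0 in all libraries or nearly so to genes above 1 CPM, and no marker exceeds 300 CPM.

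Of 12 alveolar type 1 markers 8 were detected (66.7%, against 61.1% of protein-coding genes) and 4 were near zero. PDPN, AQP5 and HOPX, 3 widely used markers, had 0 counts in every library and CLIC5 had 0, 3 and 0, whereas the caveolins CAV1 (294, 283 and 287 CPM) and CAV2 (83.2 ± 2.28) and the membrane proteins GPRC5A (130 ± 3.23) and EMP2 (67.4 ± 1.18) were well detected. SEMA3E, RTKN2, AKAP5 and AGER lay between 2.65 and 7.30 CPM. In the club and goblet list the secretoglobins were missing (SCGB1A1 2, 0 and 0 counts, SCGB3A1 and SCGB3A2 0 throughout), as were CYP2F1 and BPIFA1 with 0 counts, TFF3 with 0, 0 and 1 and PIGR with 1, 1 and 4. The mucin side of the same list was present. MUC5B, a gel-forming mucin of airway glands, was at 276, 262 and 270 CPM, MUC5AC, that of goblet cells, at 165, 171 and 169, and AGR2, a chaperone needed to fold mucins, at 145, 156 and 150. The 2 mucins are neighbours with similar repeats, so reads between them are uncertain. SLPI was at 21.3 ± 0.542 CPM, SPDEF, the transcription factor of goblet cells, at 12.5 ± 0.850, LCN2 at 11.9 ± 0.0202 and BPIFB1 at 0.111 ± 0.0550.

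Ciliated, basal and neuroendocrine markers were low or missing, and none passed 10 CPM. FOXJ1, the master factor of motile cilia, had 11, 13 and 13 counts, and SNTN and TEKT1 had 0. CCDC40 (7.13 ± 0.463 CPM), DNAH5 (4.71 ± 0.195), TPPP3 (2.45 ± 0.198) and MCIDAS (1.61 ± 0.0877) were the 4 of 11 ciliated genes detected (36.4%, beside 61.1% of all protein-coding genes). RSPH1 stood at 1.04 ± 0.239 without reaching 1 CPM in each library, and PIFO, CFAP43 and DNAH9 were under 0.3 CPM on average. Of the basal genes, TP63 was at 1.10, 1.25 and 1.67 CPM, KRT15 at 1.51 ± 0.255 and DSC3 at 4.11 ± 0.867. NGFR was at 0.534 ± 0.0807 CPM, KRT5 at 0.0695 ± 0.0324, KRT17 had 0, 2 and 1 counts, and KRT14, DSG3 and SERPINB13 had 0. SYP (5.72 ± 0.712 CPM) and CHGB (3.78 ± 0.456) were the neuroendocrine genes detected. CHGA was at 0.826 ± 0.0442 CPM and NCAM1 at 0.0601 ± 0.0395, INSM1 and NEUROD1 had 0 counts, and CALCA had 1, 0 and 0 and GRP 1, 0 and 0.

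Of 21 matched transcription factors of lung and endoderm 15 were detected (71.4%, beside 61.1% of all protein-coding genes). NKX2-1 was not among them. ELF3, an epithelial ETS factor, was at 130, 130 and 131 CPM, KLF5 at 64.5 ± 1.87, FOXA2 at 49.6, 48.4 and 52.2 and FOXA1 at 12.5 ± 0.924. HNF4A, a master regulator of liver and intestine, was at 33.9, 32.9 and 34.3 CPM. TCF7L2 (35.7 ± 0.864), SOX9 (14.4 ± 0.143), EHF (11.9 ± 0.619), GATA4 (4.14 ± 0.467) and GATA6 (3.10 ± 0.115) were detected as well, as was FOXP1 (1.83 ± 0.0370 TPM, or 5.63 with the longest transcript), and SOX2, HNF4G and FOXA3 were between 1.09 and 1.28 CPM. SOX17 and CDX2 stayed under 1 CPM, at 0.769 ± 0.145 and 0.484 ± 0.0706, FOXP2 had 0, 0 and 1 counts and CDX1 had 0. GRHL2, which keeps epithelial junction genes on, had 4, 6 and 2 counts.

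Some liver genes were detected and others were absent. CPS1 (ENSG00000021826), which starts the urea cycle in liver mitochondria, was at 403, 409 and 408 CPM. The complement protein C3 was at 162, 167 and 177 CPM, the fibrinogen chains FGA at 34.1 ± 1.55, FGB at 28.8, 29.1 and 28.5 and FGG at 18.1 ± 0.425 and APOH at 13.6 ± 0.302. By contrast albumin (ALB) had 1 count in each library, APOA2, APOC3, TTR and ITIH3 had 0, APOB had 2, 0 and 0 and HP had 0, 1 and 0. In all 11 of 26 liver genes were detected (42.3%, beside 61.1% of protein-coding genes) and 7 were near zero (26.7% of protein-coding genes were). Of 18 intestinal and gastric genes 7 were detected (38.9%), led by the tetraspan-like TM4SF4 (38.4 ± 0.920 CPM) and TM4SF20 (11.7 ± 0.266), then CDH17 (6.43 ± 0.605) and MUC13 (5.11 ± 0.573). FABP2, TFF2, REG4 and GPA33 had 0 counts.

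Leading genes of both the epithelial and the mesenchymal lists were abundant. CDH1, the adhesion protein of epithelial junctions, was at 134, 143 and 136 CPM, with KRT8 at 3817, 3781 and 3765 and KRT18 at 2671, 2616 and 2660. ITGB4, JUP, TJP1 and DSP, of hemidesmosomes, desmosomes and tight junctions, lay between 71.8 and 114 TPM. Other genes that often accompany them were low: EPCAM was at 3.02, 2.96 and 2.96 CPM, CLDN4 at 2.17 ± 0.134, CLDN7 at 0.619 ± 0.0499, and the splicing factors ESRP1 (1, 1 and 5 counts) and ESRP2 (2, 6 and 5) were barely counted. OVOL1 had 0 counts, RAB25 had 0, 1 and 0 and PRSS8 had 2, 1 and 3. On the other side, VIM, the filament protein of mesenchymal cells, was at 1242, 1254 and 1274 CPM and FN1 at 1173, 1200 and 1204. S100A4 (961 ± 22.0 TPM), TGFBI (600 ± 5.86), CD44 (169 ± 4.57) and AXL (88.8 ± 2.55) were abundant too, whereas CDH2 was at 11.7 ± 0.411 TPM and FAP had 0 counts. ZEB1, a repressor of CDH1, was at 25.1 ± 0.835 CPM. ZEB2 of the same list was at 0.103 TPM (0.203 with the longest transcript). These values are on different scales and cannot be set against each other. Detected members numbered 16 of 24 in the epithelial list (66.7%) and 15 of 18 in the mesenchymal one (83.3%), beside 61.1% of all protein-coding genes.

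Markers of other cell types were mostly near zero or low. Of 10 endothelial genes 1 was detected (10%, beside 61.1% of all protein-coding genes), the junction protein ESAM at 1.92 ± 0.211 CPM. CLDN5, TIE1, EMCN and ROBO4 had 0 counts. Of 15 blood cell genes 2 were detected (13.3%), CD14 (8.58 ± 0.762 CPM) and ITGAM (2.61 ± 0.250). PTPRC, the pan-leukocyte marker, had 1, 1 and 0 counts and CD3E, MS4A1, FCGR3A and NKG7 had 0. Fibroblast genes were limited to COL1A1 (14.6 ± 0.853 CPM), ACTA2 (5.85 ± 0.293) and THY1 (1.35 ± 0.0835), with DCN at 0, 2 and 0 counts, LUM at 2, 0 and 0 and POSTN at 2, 2 and 1. Summed levels over the lists were 1.77 to 2.33 CPM for endothelial, 10.9 to 12.0 for blood and 21.5 to 23.2 for fibroblast genes.

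At several glycolytic steps 1 gene gave nearly all of the transcript. GLUT1 (SLC2A1), the general glucose importer, was at 234, 226 and 229 CPM and made up 67.9 ± 0.477% of the summed per-length level of 13 members of its family, with SLC2A3 next at 15.2 ± 0.255%. HK1 held 97.8 ± 0.273% of hexokinase, at 87.1, 88.8 and 85.3 CPM, against 1.92, 2.05 and 1.59 CPM for HK2, the form often raised in tumours. PFKP held 84.1 ± 0.0613% of phosphofructokinase, PFKFB3 96.4 ± 0.179% of the enzymes that set its activator, ALDOA 99.6 ± 0.0421% of aldolase, ENO1 96.0 ± 0.0673% of enolase and PKM all but 0.00263% of pyruvate kinase. Lactate dehydrogenase was divided between a pair of genes. LDHA made up 51.2 ± 0.607% and LDHB 48.8 ± 0.606%, and LDHA was ahead in each library, by a margin that rests on the length used (58.2% with the longest transcript). TPI1 (1484 ± 55.2 TPM), PGK1 (608 ± 23.6) and GPI (309 ± 7.36, or 573 with the longest transcript) were abundant. Forms of liver and germ line were at or near 0: GAPDHS and PGK2 had 0 counts, PKLR had 3, 1 and 1 and LDHC 1, 1 and 0.

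**Figure D4:**
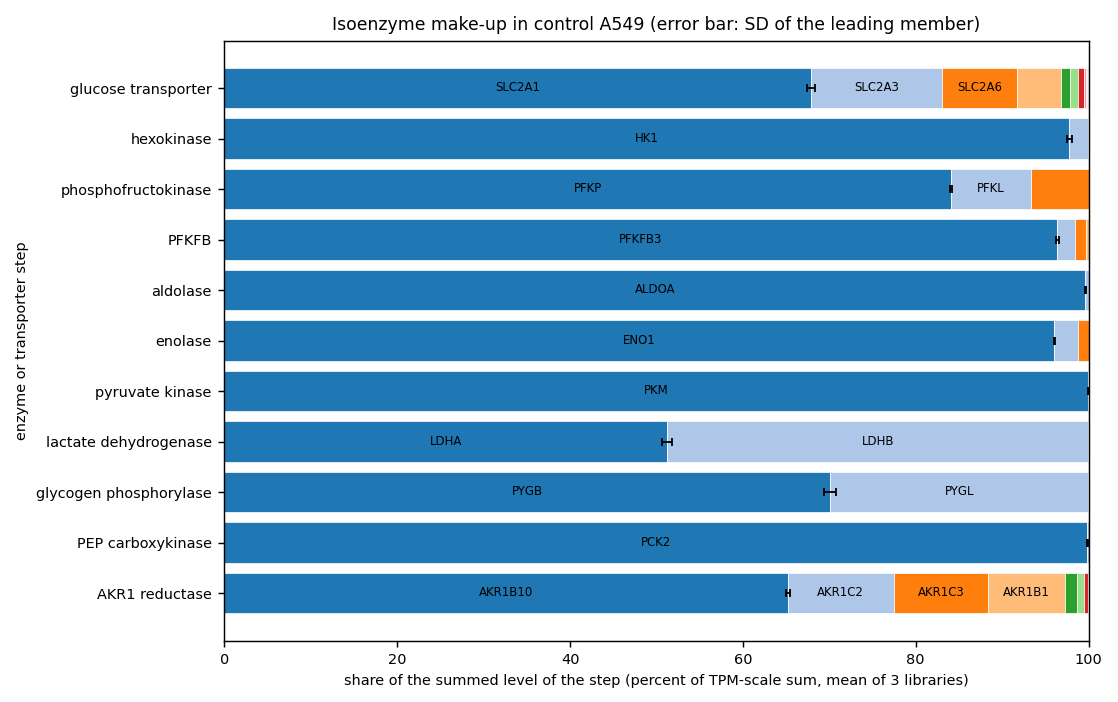
Share of each gene in the summed TPM-scale level of an enzyme or transporter step (percent, mean of 3 control libraries; error bar, SD of the leading gene). A single gene holds over 90% at 6 of 11 steps, and lactate dehydrogenase is divided almost evenly between LDHA (51.2%) and LDHB (48.8%).

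The last steps of gluconeogenesis were thinly represented. FBP1, G6PC1 and G6PC2 had 0 counts in every library and FBP2 had 0, 1 and 0, while PCK2, the mitochondrial form of phosphoenolpyruvate carboxykinase, was at 44.3 ± 0.660 CPM and held 99.9 ± 0.0439% of that step. G6PC3, a widely expressed relative of the liver glucose phosphatase, was at 107 ± 4.47 CPM. Pyruvate carboxylase (PC) was at 49.4 ± 1.85 CPM. Glycogen phosphorylase was PYGB (70.1 ± 0.694%) and PYGL (29.8 ± 0.690%), the brain and liver forms, with hardly any of the muscle form PYGM.

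The polyol pathway, from glucose by way of sorbitol to fructose, was unequally represented. AKR1B1 (ENSG00000085662), the aldose reductase that makes sorbitol, stood at 1322, 1228 and 1252 TPM. SORD (ENSG00000140263), which oxidises sorbitol to fructose, stood at 23.8, 22.5 and 22.2 TPM (42.7, 42.1 and 40.8 CPM), so the ranges lay far apart. The fructose-using enzymes KHK (24.7 ± 1.83 TPM), TKFC (29.1 ± 1.42) and GLYCTK (7.27 ± 0.303) were detected. SLC2A5, the fructose importer, had only 1, 4 and 4 counts. Transcript levels of 2 enzymes do not give the rates of their steps.

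Other metabolic lists were nearly complete. All 20 genes of fatty acid and cholesterol synthesis were detected, beside 61.1% of all protein-coding genes. They were led by ACLY (736 ± 15.7 TPM), SCD (356 ± 3.59), FADS1 (170 ± 1.76, but 290 with the longest transcript) and FASN (168 ± 7.75). Of 24 genes of the TCA cycle 23 were detected (95.8%), all but the testis form PDHA2. Serine and one-carbon genes were led by PSAT1 (313 ± 12.0 TPM), with PHGDH, the first step, at 21.4 ± 1.08 (46.7 with the longest transcript). In the glutamine and asparagine list, the amino acid transporters SLC7A5 (1239 ± 45.2 TPM) and SLC1A5 (353 ± 8.91) were abundant. Of 349 SLC genes measured, SLC7A5 and the mitochondrial ADP/ATP carrier SLC25A5 (1192 ± 47.0 TPM) were the highest with merged exon lengths, and their spreads overlap. The urea cycle was partial: beside CPS1, ASS1 (40.7 ± 0.708 CPM) and ASL (12.1 ± 0.979) were detected, and OTC and ARG1 had 0 counts.

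One cytochrome P450 outweighed all the rest. CYP24A1, the hydroxylase that inactivates vitamin D, was at 1254, 1232 and 1232 CPM and made up 75.4% of the summed per-length level of 55 CYP genes. Of the 55, 15 were detected (27.3%, beside 61.1% of all protein-coding genes). After CYP4F11, named above, came CYP1B1 at 93.5 ± 2.22 TPM and CYP2S1 at 54.3 ± 1.73. Of the drug-metabolising forms of liver, CYP1A2 had 0 counts, CYP3A4 had 0, 1 and 3, and CYP2B6 had 1, 1 and 4. The vitamin D receptor VDR was at 5.13, 4.80 and 5.15 CPM. Of the other nuclear receptors the glucocorticoid receptor NR3C1 (90.1 ± 2.24 TPM), NR1H2 (63.9 ± 3.01), NR2F2 (35.1 ± 0.773), RXRA (34.2 ± 1.70) and PPARG (31.0 ± 1.05, or 52.2 with the longest transcript) were well detected, and ESR1 (1, 1 and 3 counts) and PGR (0) were near zero.

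Proteases and receptors that matter for the use of A549 in infection studies were uneven. TMPRSS2, a surface protease that primes viral proteins, had 0, 0 and 1 counts, whereas the endosomal protease CTSL was at 287, 300 and 285 CPM, NRP1 at 423 ± 13.8 and FURIN at 69.6 ± 3.61. The poliovirus receptor PVR (145 ± 2.08 TPM), CD46 (91.7 ± 1.92) and NECTIN2 (88.9 ± 4.43) were abundant. DPP4, the receptor of MERS coronavirus, was under the detection limit at 0.802, 0.674 and 0.722 CPM. Among receptor tyrosine kinases MET led per length (188 ± 1.08 TPM), followed by EPHA2 (93.9 ± 3.71), AXL, then FGFR1 (71.3 ± 2.27, but 120 with the longest transcript) and IGF1R (69.2 ± 1.15), whose spreads overlap, and EGFR (61.9 ± 0.633). ALK had 0, 1 and 0 counts and ERBB4 2, 1 and 0, and ROS1 was at 0.430 ± 0.170 CPM.

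Genes mutated or lost in A549 gave different pictures at the RNA level. STK11 was at 47.9, 48.3 and 49.8 CPM and SMARCA4 at 16.3, 17.3 and 15.3. Of other driver genes of lung cancer, BRAF was at 21.3 ± 0.131 CPM and ERBB2 at 81.6 ± 1.80. Transcripts of STK11 and SMARCA4 were thus present even though the line is known to lack both proteins. On 9p21 the counts changed abruptly along the chromosome. FOCAD had 3052, 3303 and 3443 counts, its neighbour HACD4 63, 49 and 47 and KLHL9 2630, 2703 and 2724. Between and beyond them all 15 alpha, beta and omega interferon genes had 0, MIR31HG had 172, 155 and 151 and IFNE 40, 36 and 41. MTAP, a housekeeping gene of methionine salvage, had only 8, 20 and 7 counts. Next to it CDKN2A (ENSG00000147889), the gene of the cell cycle inhibitor p16, had 1, 2 and 0, CDKN2B 1, 0 and 0 and CDKN2B-AS1 none. DMRTA1 had 25, 22 and 22 and ELAVL2 had 4, 0 and 2. Counts cannot show a deletion by themselves, since a silent gene gives the same values.

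**Figure D5:**
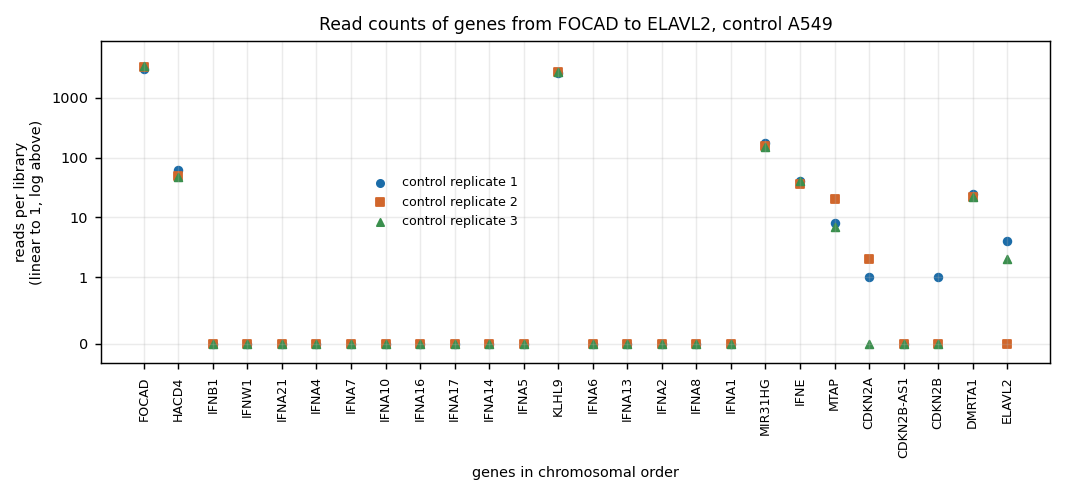
Read counts of genes from FOCAD to ELAVL2 on 9p21 in chromosomal order (linear to 1, log above); each point is 1 control library. FOCAD and KLHL9 have 2630 to 3443 counts, whereas CDKN2A, CDKN2B-AS1 and CDKN2B have at most 2.

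Growth genes were all present. Each of 18 proliferation genes was detected (beside 61.1% of all protein-coding genes), with a median of 190 TPM. They included PCNA (998 ± 26.8 TPM), TOP2A (609 ± 11.3), CCNB1 (429 ± 8.82) and TYMS (270 ± 5.27). MKI67 was at 779, 869 and 842 CPM and TERT, the catalytic subunit of telomerase, at 6.60, 6.15 and 6.57. The cell cycle inhibitor CDKN1A was at 86.4 ± 5.94 TPM. Of 20 cancer-testis genes 3 were detected (15%, beside 61.1%): PRAME at 167, 165 and 166 CPM, MAGEA6 at 37.4 ± 1.47 and LIN28B at 7.83 ± 0.174. MAGEA6 has a near-identical copy, MAGEA3, which had 2, 1 and 0 counts. Of the secreted and antigen-presenting genes CXCL5 (272 ± 7.63 TPM), TIMP1 (190 ± 8.37) and CXCL1 (132 ± 3.48) stood high, IL6 was at 0.145 ± 0.0811 CPM, CD274 at 0.775 ± 0.0478, and the class II gene HLA-DRA had 0 counts.

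Leading members of some gene families add to this profile. Of 24 claudins 7 were detected (29.2%, beside 61.1% of all protein-coding genes). CLDN2, which forms a cation pore, held 62.3% of the family's summed TPM-scale level. ITGB1 (864 ± 12.7 TPM) held 54.9% of the integrins, with ITGB5, ITGA3 and ITGB4 next. Collagens were led by COL18A1 (165 ± 7.16 TPM), COL5A2 (95.7 ± 2.83), COL7A1 (91.6 ± 3.62) and the basement membrane chains COL4A2 (70.9 ± 3.78) and COL4A1 (46.3 ± 2.08). Of 55 keratin genes 11 were detected (20%, beside 61.1% of all protein-coding genes) and 38 were near zero (beside 26.7%). Among HOX genes 8 of 11 HOXA, 7 of 10 HOXB and 4 of 9 HOXC genes were detected and 1 of 9 HOXD genes, beside 61.1% of all protein-coding genes, with HOXB7 highest per length (18.2 ± 0.875 CPM). The most counted non-coding transcripts outside the mitochondrial genes were SNHG29 (465 ± 13.2 CPM), NEAT1 (310 ± 14.7), NORAD (295 ± 13.5), FGD5-AS1 (180 ± 2.41), TUG1 (170 ± 4.68) and SNHG5 (157 ± 5.48), and MALAT1 came ninth at 131 ± 10.1.

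The 3 libraries were close to each other but not equal. Pearson's r of log2(CPM + 1) over detected genes was 0.998 to 0.999 for each pair, a description across genes, which are not independent replicates. Counts of each pair differed by more than sampling noise (chi-square per degree of freedom 7.002, 4.53 and 2.67), and each library was counted as 1 replicate. Of 9478 genes with a mean of 10 CPM or more the median coefficient of variation was 3.10%, the 95th percentile was 7.64% and 126 genes passed 10%. The most variable was MT-ATP8, a mitochondrially encoded subunit of ATP synthase, at 388, 610 and 605 CPM. It was low in replicate 1, as was the mitochondrial share of counts. Next came IER3IP1 (14.5, 10.2 and 14.8 CPM), TRAPPC6A (20.5, 14.4 and 15.8), SRXN1, EIF5AL1 (12.7, 11.4 and 8.76), SLC38A6 (13.3, 9.49 and 13.2) and ALG6 (12.8, 9.34 and 13.1), followed by RPL13AP25, BMI1 and BLOC1S1. IER3IP1, SLC38A6, ALG6 and BMI1 were lowest in replicate 2. TPM-scale values of many abundant genes were highest in replicate 1. For some, such as FTL (7131, 6743 and 6855 CPM), CPM was highest there too. A link with the mitochondrial share was not tested.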

How the data were processed

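Poly(A)-selected RNA of A549 cells was sequenced in 9 libraries, and the 3 control libraries were used here. The deposited table holds the authors' read counts per Ensembl gene, whole numbers without normalization. The submitters' processing notes list genome build GRCh37, STAR 2.5.2b, cutadapt 1.9.1, DESeq2 1.12.3 and, from Subread, featureCounts 1.5.1, with no role or order. Annotation release, strand setting and the rule for reads with several matches were not given in the sources used here, so genes with near-identical copies, shared exons or antisense partners are uncertain.

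CPM used TMM scaling over the control libraries (edgeR 4.0.16, R 4.3.3). TPM-scale levels used merged exon lengths of GENCODE 29, which matched 52338 of 57905 IDs. It is on another build than the counts, so it gave names, types, order and lengths only, and 0.555% to 0.558% of counts lay in IDs without a length. Promoters came from RefSeq's table. No group was compared and no test was run. Dispersion was estimated with a model of a single mean and checked on simulated data. Intervals and floors cover counting error only.

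The 43 lists hold 634 symbols, of which 3, among them CCDC39 and CT45A1, matched no ID. Members and lists were chosen with earlier results of these data known. Named were all members of the lung, NRF2, identity and polyol lists, up to 8 top members and the near-zero members of each other list, the 30 most abundant protein-coding genes outside mitochondrial and ribosomal protein genes, the top 10 non-coding genes, the top 5 of 10 symbol families and the 10 most variable genes. Some items are not reported here, so not every gene the rule allows is printed. Chosen after their values were seen were the glycolytic genes GPI, HK1, HK2, PFKP and PFKFB3 and CD274, CLDN4, CLDN7, DPP4, EPCAM, ESRP1, ESRP2, IL6, TERT, VDR, ZEB1, ZEB2 and the genes of the closing observations.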

Additional observations from a re-analysis of the deposited data

How the results depend on the processing

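No paired analysis was possible because a single group was described and no groups were compared. Detected gene IDs ranged from 12079 to 15426 over thresholds of 2 CPM to 10 counts, and from 13195 to 13208 without any 1 library. Of the 30 most abundant genes, 25 remained with the longest annotated transcript as the length (CPLX2, NQO1, TMSB4X and UBB were among those that left), 22 when ranked by CPM and 29 without replicate 1. The NRF2 target median was 211 TPM with the longest transcript (191 with merged exons) and 262 CPM with TMM over all 9 libraries (254 over 3). The lung genes near zero numbered 17 when 0 counts in every library were required, 38 under 0.5 CPM and 30 to 31 without any 1 library. The coefficient of variation between libraries was 2.18% without replicate 1, 2.96% without replicate 2 and 3.63% without replicate 3, and DESeq2's median over genes was 4.85%. Exon length limits every comparison between genes: 65 of 574 listed genes changed by over 1.5-fold with the other length, AKR1C2 and AKR1C3 changed places, and so did SLC2A6 (6.79%) and SLC2A8 (6.96%).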

Other observations

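Some gene families were summed as well. Of 19 aldehyde dehydrogenases 15 were detected (78.9%) and none was near zero, beside 61.1% and 26.7% of all protein-coding genes. ALDH1A1 held 79.0% of their summed TPM-scale level. After ALDH3A1 came ALDH3B1 (203 ± 11.3 TPM), ALDH3A2 (196 ± 1.60) and ALDH1B1 (113 ± 2.52), while ALDH2, the mitochondrial enzyme of ethanol breakdown, was at 31.5 ± 1.74. Of 22 genes with a UGT symbol, 2 were detected (9.09%, beside 61.1%) and 11 were near zero (beside 26.7%). Of 17 mucin genes 6 were detected (35.3%, beside 61.1%). Among them, MUC1, the membrane mucin of many adenocarcinomas, was at 4.23 ± 0.796 CPM and MUC16, the CA125 antigen, at 4.37 ± 0.314.

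The class I antigen genes HLA-C (81.5 ± 4.78 TPM) and HLA-B (19.4 ± 0.775) were detected with their partner B2M (113 ± 2.89, or 215 with the longest annotated transcript as the length), while CD74, the class II invariant chain, had 0, 1 and 1 counts. HLA genes vary between genomes, so read mapping to the reference limits these levels. Among cytokines LIF (107 ± 5.14 TPM) and IL11 (47.5 ± 1.79), both of the IL6 family, were present beside an IL6 of 0.234 ± 0.128 TPM. Of the CXC chemokines, CXCL8 was at 47.2 ± 1.88 TPM. The imprinted H19 was at 21.5 ± 0.501 CPM and MEG3 at 6.46 ± 0.212, whereas HOTAIR (1, 2 and 2 counts) and UCA1 (0, 1 and 1) were near zero.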
